A study of Mus musculus with 4 samples.

Results

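The 10 genes described here encode enzymes of triglyceride synthesis (*Gpd1*, *Gpam*, *Agpat2*, *Lpin1*, *Dgat1* and *Dgat2*) and of lipolysis (*Pnpla2*, *Abhd5*, *Lipe* and *Mgll*). They were taken by name from the 22463 genes of the deposited RNA-Seq files, through the RefSeq transcripts listed under each symbol or an older name of it. The 10 genes have 18 transcripts in the files, and the transcript with most reads over all libraries stands for each gene. Immortalized brown preadipocytes, precursors of brown fat cells, had been derived from C57BL/6J mouse embryos (E18.5) with the genotype *Mll3*-/- *Mll4* f/f and immortalized with SV40T. They were infected with adenovirus expressing GFP (Ad-GFP) or the Cre recombinase (Ad-Cre), and Cre deletes the floxed part of *Mll4*. Ad-GFP cells are thus *Mll3*-/-, although the sample labels call them WT, and Ad-Cre cells are *Mll3*-/- *Mll4*-/-. MLL3 and MLL4 are methyltransferases of histone H3 lysine 4 that act on enhancers. RNA was collected at day 0, when confluent cells had not yet been induced, and at day 2 of adipogenesis induced with insulin, T3, indomethacin, dexamethasone and IBMX. All cells lacked MLL3, so a cell with both enzymes is not among these 4 conditions. Each condition has 1 library and therefore no replicate check, no difference between conditions was tested, and no p-value is given.

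Levels are RPKM, reads on the exons of a transcript per kilobase of exon and per megaread mapped, so that levels can be compared between genes. Ranges in parentheses after a log2 ratio are exact binomial 95% intervals, which cover counting error only and compare 2 libraries rather than 2 conditions. Those after a difference of log2 rises from day 0 to day 2 are normal 95% intervals from the counts of all 4 libraries. They too cover counting error only. Summed exon counts ran from 15831915 to 22099995 reads per library and were between 87.8% and 99.4% of the mapped reads, with the lowest share in Ad-Cre cells at day 2. *Mll4*, listed as *Kmt2d*, had 6304 reads in Ad-GFP cells at day 0, 8530 in Ad-GFP cells at day 2, 6316 in Ad-Cre cells at day 0 and 5595 in Ad-Cre cells at day 2. These are 18.49, 18.7, 16.3 and 15.6 RPKM, and because most of the transcript lies outside the floxed exons, this level does not check the deletion. The study examined the deletion in these cells by RNA-Seq over the targeted exons, by qRT-PCR of *Mll4* and by immunoprecipitation of the MLL4 complex. The labels of the libraries stand here as given. The 5 preadipocyte markers *Pdgfra*, *Pdgfrb*, *Dlk1*, *Cd34* and *Ly6a* were all detected in every library. Their summed level at day 0 was 326 RPKM in the Ad-GFP and 144 RPKM in the Ad-Cre library, and its parts moved in opposite directions. *Pdgfrb* was higher in the Ad-Cre library (89.9 and 123 RPKM), while *Pdgfra* (73.6 and 9.72 RPKM), *Dlk1* (141 and 10.1 RPKM), *Cd34* (11.1 and 0.352 RPKM) and *Ly6a* (9.90 and 0.248 RPKM) were lower. These 2 libraries thus already differed before induction, and without a replicate the difference cannot be told apart from one between cultures. Of the 4 brown lineage markers, *Ebf2* had 724, 1610, 404 and 866 reads in the same order of libraries, *Zic1* 300, 98, 153 and 67, and *Prdm16* 82, 424, 116 and 105, while *Ucp1*, the uncoupling protein that defines brown fat, had at most 1 read in any library. *Prdm16* was 3.87-fold higher at day 2 in the Ad-GFP libraries (log2 ratio 1.95, 1.61 to 2.31), against −0.03 (−0.42 to 0.36) in those of Ad-Cre cells. Summed levels of muscle, macrophage, endothelial and epithelial marker lists were at most 1.33 RPKM in every library.

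Fat cells store energy as triglyceride in a lipid droplet. Synthesis starts from glycerol 3-phosphate, to which acyltransferases of the GPAT and AGPAT families add fatty acids. A lipin then removes the phosphate, and a diacylglycerol acyltransferase (DGAT) adds the last fatty acid. Lipolysis runs the other way: ATGL (*Pnpla2*), helped by its activator CGI-58 (*Abhd5*), releases the first fatty acid, hormone-sensitive lipase (*Lipe*) the next, and monoglyceride lipase (*Mgll*) the last. In brown fat the released fatty acids are fuel for heat production.

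All 10 genes rose in Ad-GFP cells, so a shared rise does not set the lipolysis genes apart, and the sequences of *Mgll* are not shown. As examples, the bases just upstream of the start sites of *Pnpla2*, *Lipe* and *Abhd5* are given. They are RefSeq sequences of build GRCm38.p6, a later build than the one the reads were aligned to, and each is written 5′ to 3′ on the strand of its gene with its last base next to the start site. Capitals mark a GC box (GGGCGG) or an E-box (CACGTG), on either strand. *Lipe* has 2 start sites in the RefSeq table, and the files list 2 transcripts of the gene.
Pnpla2, chr7:141454938-141455187, plus strand: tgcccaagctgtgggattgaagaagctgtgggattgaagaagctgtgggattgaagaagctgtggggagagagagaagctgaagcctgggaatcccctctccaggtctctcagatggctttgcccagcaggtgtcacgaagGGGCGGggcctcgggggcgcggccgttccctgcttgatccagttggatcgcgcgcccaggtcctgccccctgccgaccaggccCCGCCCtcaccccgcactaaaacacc
Lipe, upstream start, chr7:25395988-25396237, minus strand: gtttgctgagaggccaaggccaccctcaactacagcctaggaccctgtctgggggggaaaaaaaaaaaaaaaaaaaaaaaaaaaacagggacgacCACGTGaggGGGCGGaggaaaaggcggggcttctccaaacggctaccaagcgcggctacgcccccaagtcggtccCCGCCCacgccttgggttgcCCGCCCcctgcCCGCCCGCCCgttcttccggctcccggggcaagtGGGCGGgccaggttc
Lipe, downstream start, chr7:25390113-25390362, minus strand: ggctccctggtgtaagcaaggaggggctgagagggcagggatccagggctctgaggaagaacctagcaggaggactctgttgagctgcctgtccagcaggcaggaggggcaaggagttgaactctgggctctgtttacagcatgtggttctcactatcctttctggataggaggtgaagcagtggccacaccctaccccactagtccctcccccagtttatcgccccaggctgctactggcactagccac
Abhd5, chr9:122351366-122351615, plus strand: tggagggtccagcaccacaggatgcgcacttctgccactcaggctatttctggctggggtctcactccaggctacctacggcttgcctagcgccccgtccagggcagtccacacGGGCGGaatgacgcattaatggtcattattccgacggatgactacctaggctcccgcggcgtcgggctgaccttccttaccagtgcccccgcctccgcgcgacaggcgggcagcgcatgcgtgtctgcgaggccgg
These 250-base windows have a GC content of 63.2% for *Pnpla2*, 62.8% and 58.8% for the upstream and downstream start of *Lipe*, and 64.8% for *Abhd5*, against a median of 52.4% over 32851 promoter windows. The E-box of *Lipe* lies 155 to 150 bases before the upstream start, and 6 GC boxes, a pair of them sharing letters, lie in the same window. Sequences were found for 7 members with 10 start sites, and *Gpd1*, *Dgat1* and *Dgat2* had no entry. A GC box was present in 6 of the 10 windows (60.0%) and in 32.7% of all windows. The E-box was present in 2 of 10 (*Lipe* and *Mgll*) and in 6.02% of all windows. A CCAAT box (CCAAT) was present in 1 of 10 (*Gpam*) and in 33.8% of all windows. Searched on both strands, 4 further motifs were in none of the 10 windows. They were the TATA box (TATAAA, in 12.4% of all windows), the C/EBP motif (TTGCNNAA, 9.56%), the PPAR-RXR direct repeat (AGGNCA and AGGNCA 1 base apart, 0.338%) and the glucocorticoid receptor motif (GAACA and TGTTC 3 bases apart, 0.0396%). These matches describe letters only.

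All 10 genes had an RPKM above 1 in an Ad-GFP library, and 8 were above 1 already at day 0 in both cell populations, the exceptions being *Gpd1* and *Mgll*. Day 0 levels of each member differed by less than 2.5-fold between Ad-GFP and Ad-Cre cells. The highest day 0 level was that of *Agpat2*, with 14.1 RPKM in Ad-GFP and 15.9 RPKM in Ad-Cre cells, and the lowest that of *Mgll*, with 0.131 and 0.0642 RPKM. At day 2 the lipase genes *Lipe* and *Pnpla2* led. In Ad-GFP cells the order was *Lipe*, *Pnpla2*, *Dgat2*, *Abhd5*, *Agpat2*, *Dgat1*, *Lpin1*, *Gpd1*, *Gpam* and *Mgll*, from 264 down to 13.4 RPKM, and no neighbouring pair had overlapping 95% Poisson intervals. In Ad-Cre cells *Lipe*, *Pnpla2* and *Dgat2* led again, at 60.0, 53.5 and 35.7 RPKM, *Dgat1* and *Agpat2* followed with overlapping intervals, and *Gpam* came last at 3.23 RPKM. At day 0 overlaps were common. In Ad-GFP cells the overlapping neighbours were *Agpat2* with *Dgat1*, *Pnpla2* with *Lipe*, *Lipe* with *Lpin1*, *Dgat2* with *Gpam*, and *Gpd1* with *Mgll*. In Ad-Cre cells they were *Abhd5* with *Dgat1*, *Dgat1* with *Pnpla2*, *Lpin1* with *Dgat2*, *Dgat2* with *Lipe*, and *Lipe* with *Gpam*.

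**Figure D1:**
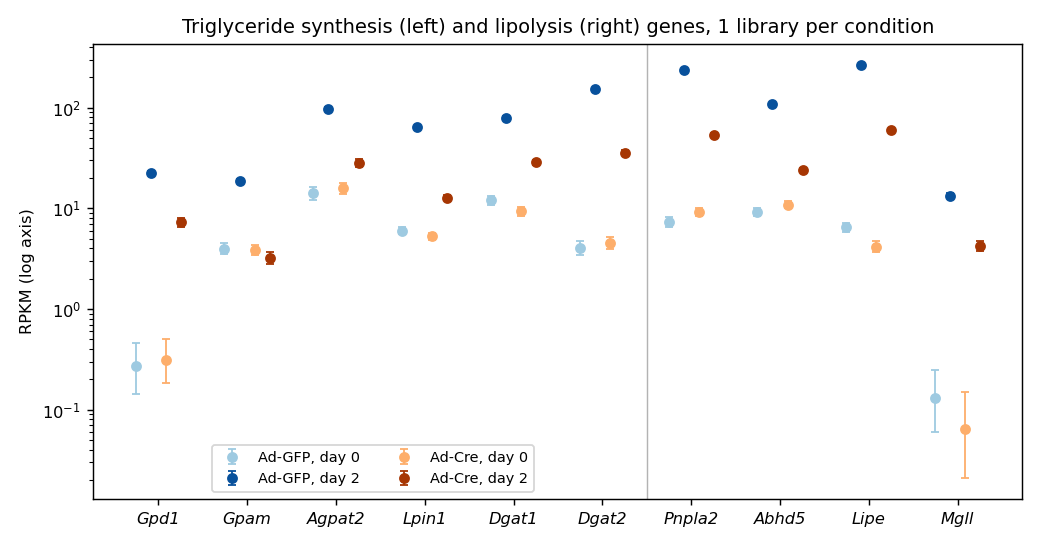
RPKM on a log axis of the 10 genes in the 4 libraries (light and dark blue for Ad-GFP at day 0 and day 2, light and dark orange for Ad-Cre), with synthesis genes left and lipolysis genes right of the grey line; error bars are exact Poisson 95% intervals of the read counts. Every dark blue point lies above the other points of its gene, and *Gpam* is the member whose Ad-Cre day 2 level, 3.23 RPKM, is below its day 0 level.

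The first comparison asks how the genes changed as Ad-GFP cells differentiated. A gene was counted as higher or lower when the ratio of its RPKM between 2 libraries passed 2.5-fold. The members were chosen with earlier results of these data known. All 10 genes passed the cutoff upward from day 0 to day 2 in Ad-GFP cells, against 8.38% of the 11541 genes above 1 RPKM in an Ad-GFP library, and 12.7% of those genes passed it downward. The members' log2 ratios ran from 2.23 for *Gpam* to 6.67 for *Mgll*, with a median of 4.29, beside a median of 0.15 over the 11541 genes. In Ad-Cre cells 6 of the 10 passed the cutoff upward (*Gpd1*, *Dgat1*, *Dgat2*, *Pnpla2*, *Lipe* and *Mgll*), where 8.66% of genes did. None passed it downward, where 10.0% of genes did. The 4 others were *Gpam*, *Agpat2*, *Lpin1* and *Abhd5*. In Ad-Cre cells the median was 2.08, beside −0.01 over all genes, and the range was −0.27 to 6.04. In these bulk samples, fewer fat cells and less RNA per fat cell cannot be told apart. The 5 fat cell markers *Pparg*, *Cebpa*, *Fabp4*, *Adipoq* and *Plin1* had summed levels of 26.2 and 1673 RPKM at day 0 and day 2 in the Ad-GFP libraries and of 13.4 and 422 RPKM in those of Ad-Cre cells. At day 2 their log2 ratios of Ad-Cre over Ad-GFP were −2.36, −1.96, −2.00, −2.28 and −1.68. Unlike any member, *Pparg* was over 2.5-fold lower already at day 0 (−1.73, −2.31 to −1.17), where *Cebpa* stood at −1.28 (−1.46 to −1.11). The differences of log2 rises of these transcription factors, −0.63 and −0.68, were smaller in size than those of most members. *Fabp4*, *Adipoq* and *Plin1* had day 0 ratios of 0.02, 1.04 and −0.18, that of *Adipoq* on 3 and 7 reads. Their differences of rises were −2.03 (−2.60 to −1.45), −3.32 (−5.29 to −1.35) and −1.50 (−2.45 to −0.55), beside a median of −2.05 for the members. The part of such a difference in fat cell content in the members' values was not tested.

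**Figure D2:**
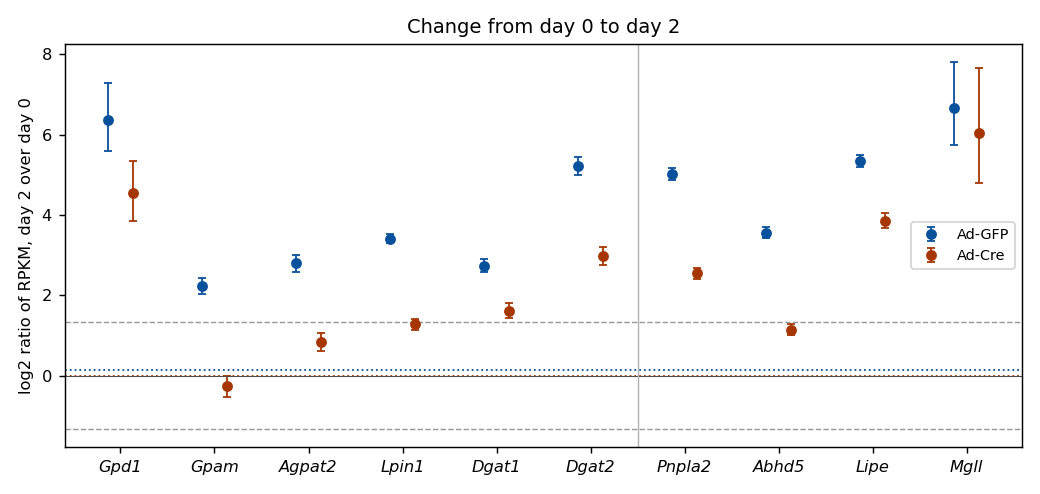
log2 ratio of RPKM at day 2 to day 0 in Ad-GFP (blue) and Ad-Cre cells (brown), with exact binomial 95% intervals; dashed lines mark 2.5-fold, dotted lines the median of all expressed genes in each cell population. All 10 blue points lie above the upper dashed line, and 4 brown points (*Gpam*, *Agpat2*, *Lpin1*, *Abhd5*) lie below it.

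The comparison of Ad-Cre with Ad-GFP cells asks how they differed at each day. With 1 library per condition, an effect of the *Mll4* deletion cannot be told apart from a difference between cultures. At day 0 no member passed 2.5-fold in either direction, where 1.27% of genes passed it upward and 4.12% downward. The members' median log2 ratio was 0.06, beside −0.02 over all genes, and *Pnpla2* was highest at 0.32. The lowest was *Mgll* at −1.03, on 9 and 5 reads. At day 2 all 10 were over 2.5-fold lower in Ad-Cre cells, where 10.1% of genes were lower and 8.14% higher by that much. Their log2 ratios lay close together, from −2.53 for *Gpam* to −1.48 for *Dgat1*, with a median of −2.11 beside −0.16 over all genes. Every one of the 10 intervals at day 2 lay below the cutoff as well. The order of the members was not firm, and after division by the trend over length its ends were *Agpat2* (−2.22) and *Mgll* (−1.22). The Ad-GFP day 2 library enters both the day 2 ratio and the Ad-GFP rise, so these values are not separate observations. The rise in Ad-Cre cells relative to that in Ad-GFP cells uses all 4 libraries, and was over 2.5-fold smaller for 8 of the 10 genes. The exceptions were *Dgat1* and *Mgll*. The interval itself passed the cutoff for 6 genes, not for *Gpd1* (−2.89 to −0.78) and *Lipe* (−1.73 to −1.26), and after division by the trend over length 7 genes passed, without *Lipe* (−1.17). Of 11438 genes with a value, 10.9% had a rise smaller by that much. The members' median difference of log2 rises was −2.05, beside −0.11.

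**Figure D3:**
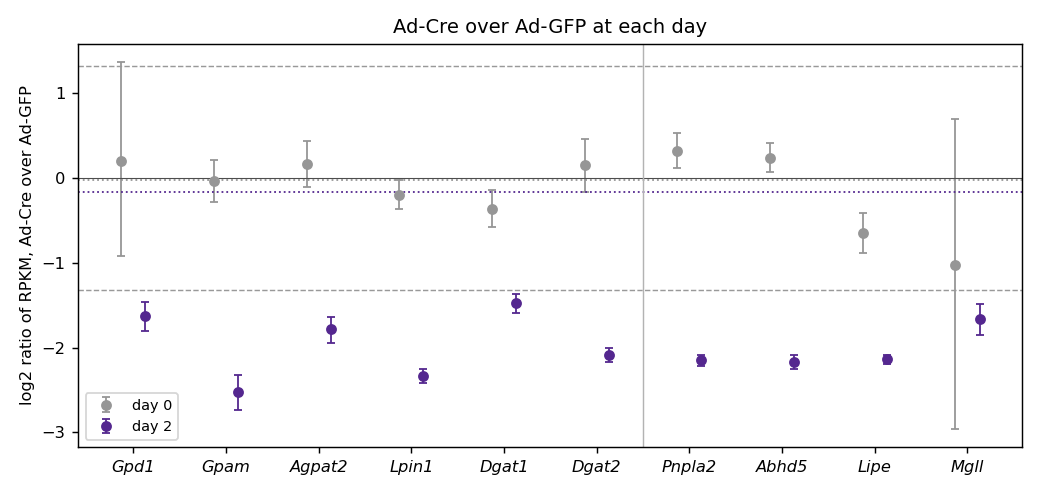
log2 ratio of RPKM, Ad-Cre over Ad-GFP, in day 0 (grey) and day 2 libraries (purple), with exact binomial 95% intervals; dashed lines mark 2.5-fold and dotted lines the median of all expressed genes at each day. The 10 grey points lie between −1.03 and 0.32, and the 10 purple points lie below the lower dashed line.

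Synthesis of triglyceride begins with *Gpd1* (NM_010271, NCBI37/mm9 chromosome 15, 99547946 to 99555436, plus strand), cytosolic glycerol 3-phosphate dehydrogenase, which makes the glycerol backbone from a glycolysis intermediate. It had 13 reads in Ad-GFP cells at day 0, 1445 in Ad-GFP cells at day 2, 17 in Ad-Cre cells at day 0 and 366 in Ad-Cre cells at day 2, or 0.271, 22.6, 0.313 and 7.29 RPKM. Both day 0 libraries were thus near 0, and Ad-GFP day 2 stood highest. It rose 83.2-fold in Ad-GFP cells (log2 ratio 6.38, 5.60 to 7.29) and 23.3-fold in Ad-Cre cells (4.54, 3.84 to 5.34). At day 2 it was 3.10-fold lower in Ad-Cre cells (−1.63, −1.80 to −1.46), while at day 0 its ratio had an interval that holds no change (0.20, −0.92 to 1.37). On the other strand, exons of *Gm16537* share 384 bases with those of *Gpd1*, and whether reads were counted by strand is not given in the sources used here.

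*Gpam* (NM_008149, chromosome 19, 55142142 to 55201824, minus strand) encodes GPAT1, the mitochondrial enzyme that adds the first fatty acid to glycerol 3-phosphate. Its reads were 262, 1639, 291 and 223, in the order Ad-GFP day 0, Ad-GFP day 2, Ad-Cre day 0 and Ad-Cre day 2, which is kept below, and its levels 3.98, 18.6, 3.90 and 3.23 RPKM. *Gpam* was the member with the smallest rise in Ad-GFP cells, 4.68-fold (2.23, 2.04 to 2.42). In Ad-Cre cells its log2 ratio of day 2 to day 0 was −0.27 (−0.53 to −0.01). The sign of that value is not firm, since it became 0.01 after each ratio was divided by its trend over exon length, and 0.11 after the trends over length and GC content. At day 2 *Gpam* had the lowest ratio of Ad-Cre to Ad-GFP among the members, 5.77-fold lower (−2.53, −2.74 to −2.32), and at day 0 its ratio was −0.03 (−0.28 to 0.22). After the trend over length the day 2 value of *Gpam* was −2.08, and *Agpat2* was lowest at −2.22. The rise in Ad-Cre cells was lower than that in Ad-GFP cells by a log2 difference of −2.50 (−2.81 to −2.18, a normal interval from the counts of all 4 libraries).

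*Agpat2* (NM_026212, chromosome 2, 26448577 to 26459937, minus strand) adds the second fatty acid and makes phosphatidic acid; people who lack it have almost no fat tissue. Reads were 203, 1880, 259 and 428, and levels 14.1, 97.7, 15.9 and 28.4 RPKM. Ad-GFP cells at day 2 were again the highest of the 4. It rose 6.93-fold in Ad-GFP cells (2.79, 2.58 to 3.01), while in Ad-Cre cells the ratio was 1.79-fold (0.84, 0.61 to 1.07), short of the cutoff. The transcript counted has 837 exon bases, the shortest among the members, and the Ad-Cre value depended on length: it became 0.13 after division by the trend over exon length and −0.31 after the trends over length and GC content. At day 2 *Agpat2* was 3.45-fold lower in Ad-Cre cells (−1.78, −1.94 to −1.63), and −2.22 and −2.72 after the same divisions. Its exons share 64 bases with *Egfl7* on the other strand.

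*Lpin1* (NM_001130412, chromosome 12, 16542475 to 16596576, minus strand) encodes lipin 1, the phosphatidate phosphatase that gives diacylglycerol. Its 583, 8287, 578 and 1291 reads were 6.03, 64.1, 5.27 and 12.7 RPKM. It rose 10.6-fold in Ad-GFP cells (3.41, 3.29 to 3.53). In Ad-Cre cells it was 2.42-fold higher at day 2 (1.27, 1.13 to 1.42), an interval that holds the cutoff, and it passed the cutoff with the summed counts as denominator (1.45) and after the division by the trend over length (1.75). At day 2 it was 5.04-fold lower in Ad-Cre cells (−2.33, −2.42 to −2.25), the next lowest after *Gpam*. That rank is not firm, since the value became −1.69 after the trend over length and −1.73 after the trends over length and GC content. At day 0 the log2 ratio was −0.19 (−0.36 to −0.03).

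*Dgat1* and *Dgat2* encode unrelated enzymes that add the last fatty acid. *Dgat1* (NM_010046, chromosome 15, 76332445 to 76342381, minus strand) had 362, 3211, 320 and 904 reads, or 12.0, 79.6, 9.35 and 28.6 RPKM. It had the smallest deficit in Ad-Cre cells at day 2, 2.79-fold (−1.48, −1.59 to −1.37). This rank is not firm, since after division by the trend over length *Dgat1* stood at −1.62, *Gpd1* at −1.42 and *Mgll* at −1.22. The rise of *Dgat1* was 6.64-fold in Ad-GFP (2.73, 2.57 to 2.89) and 3.06-fold in Ad-Cre cells (1.61, 1.43 to 1.80). The difference of these rises was −1.12 (−1.36 to −0.88), within 2.5-fold. After the trends over length and GC content the rises lay farther apart, at 2.90 and 1.17. *Dgat2* (NM_026384, chromosome 7, 106302173 to 106331223, minus strand) had 158, 7864, 199 and 1451 reads, or 4.08, 152, 4.53 and 35.7 RPKM. Its rise was the larger of the pair in both cell populations, 37.2-fold in Ad-GFP (5.22, 4.99 to 5.46) and 7.89-fold in Ad-Cre cells (2.98, 2.77 to 3.20). At day 2 *Dgat2* was 4.25-fold lower in Ad-Cre cells (−2.09, −2.17 to −2.01), and the intervals of *Dgat1* and *Dgat2* did not overlap. After the trends over length and GC content the day 2 values were closer, −2.03 for *Dgat1* and −2.20 for *Dgat2*.

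Lipolysis begins with *Pnpla2* (chromosome 7, 148641097 to 148646642, plus strand), which encodes the triglyceride lipase ATGL. Its transcript with most reads is the non-coding variant NR_028142, with 342, 14830, 486 and 2620 reads, or 7.32, 237, 9.17 and 53.5 RPKM. The coding transcripts NM_001163689 and NM_025802 share nearly all of these reads, and their log2 ratios at day 2 were −2.15 and −2.14. *Pnpla2* rose 32.4-fold in Ad-GFP cells (5.02, 4.87 to 5.18) and 5.83-fold in Ad-Cre cells (2.54, 2.40 to 2.69). At day 2 it was 4.44-fold lower in Ad-Cre cells (−2.15, −2.21 to −2.09), although at day 0 it was slightly higher there (0.32, 0.12 to 0.53). Its difference of rises, −2.48 (−2.68 to −2.27), was close to that of *Gpam*.

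*Abhd5* (NM_026179, chromosome 9, 122260726 to 122290642, plus strand) encodes CGI-58, the protein that activates ATGL. Its 498, 7839, 669 and 1367 reads were 9.20, 108, 10.9 and 24.1 RPKM, so that it was among the higher members at day 0. It rose 11.8-fold in Ad-GFP cells (3.56, 3.43 to 3.69), while in Ad-Cre cells the ratio was 2.21-fold (1.14, 1.01 to 1.28), short of the cutoff. With the summed counts as denominator this value became 1.32, just past it. At day 2 *Abhd5* was 4.50-fold lower in Ad-Cre cells (−2.17, −2.25 to −2.09), an interval that overlaps that of *Pnpla2*. After the trends over length and GC content the values were −1.62 for *Abhd5* and −2.39 for *Pnpla2*.

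*Lipe* (NM_010719, chromosome 7, 26164546 to 26183729, minus strand) encodes hormone-sensitive lipase, the enzyme that hydrolyses diacylglycerol and that cAMP signalling switches on. It had 359, 19546, 261 and 3484 reads, or 6.48, 264, 4.15 and 60.0 RPKM, and was the highest member at day 2 in both cell populations. It rose 40.7-fold in Ad-GFP cells (5.35, 5.20 to 5.50) and 14.4-fold in Ad-Cre cells (3.85, 3.67 to 4.04). *Lipe* was 4.40-fold lower in Ad-Cre cells at day 2 (−2.14, −2.19 to −2.09). It also was lower there at day 0, by less than the cutoff (−0.64, −0.88 to −0.41), the only member besides *Dgat1* and *Lpin1* with a day 0 interval wholly below 0. The difference of rises was −1.50 (−1.73 to −1.26), smaller in size than that of *Pnpla2*. Its other transcript gave a day 2 ratio of −2.13, and its exons share 264 bases with 4732471J01Rik on the other strand.

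*Mgll* (NM_001166251, chromosome 6, 88674406 to 88778354, plus strand) encodes the lipase that splits monoglyceride into glycerol and the last fatty acid. Its reads were 9, 1226, 5 and 304, and its levels 0.131, 13.4, 0.0642 and 4.22 RPKM. It had the largest rises, with wide intervals from the few day 0 reads: 102-fold in Ad-GFP (6.67, 5.74 to 7.80) and 65.8-fold in Ad-Cre cells (6.04, 4.80 to 7.67). The difference of rises, −0.63 (−2.22 to 0.96), could not be told from 0 at this depth. At day 2 *Mgll* was 3.16-fold lower in Ad-Cre cells (−1.66, −1.85 to −1.48), and division by the trend over length moved this to −1.22, within the cutoff. It has 4 transcripts in the files. The shortest, NM_001166250, had 0 reads at day 0 and 55 and 18 at day 2 in Ad-GFP and Ad-Cre cells. Exons of *Gm16628* on the other strand share 90 bases with it.

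Among the enzymes that share each synthesis step, the members other than *Dgat1* took a larger share of the summed RPKM of the step at day 2 than at day 0 in Ad-GFP cells. *Gpd1*, *Agpat2*, *Lpin1* and *Dgat2* gained less share in the Ad-Cre libraries, and *Gpam* lost share there. In Ad-GFP cells *Gpd1* went from 2.03% to 54.9% of the glycerol 3-phosphate dehydrogenases, and in Ad-Cre cells from 2.11% to 50.7%. The remainder came from *Gpd1l* and the mitochondrial *Gpd2*. The share of *Gpam* among the GPAT enzymes changed little in Ad-GFP cells, from 10.4% to 11.8%, and was 9.51% and 5.60% in Ad-Cre cells. The main change there was from *Gpat4*, 86.4% at day 0, to *Gpat3*, which went from 3.23% to 51.3% in Ad-GFP and from 2.26% to 19.7% in Ad-Cre cells. *Agpat2* went from 13.9% to 42.6% of the AGPAT enzymes in Ad-GFP cells and became the most abundant, while in Ad-Cre cells it went from 13.8% to 17.5% and *Agpat1* kept 49.7%. *Lpin1* went from 48.0% to 92.2% of the lipins in Ad-GFP and from 46.4% to 76.7% in Ad-Cre cells. *Dgat2* exceeded *Dgat1* at day 2 in both cell populations, with 65.6% (Ad-GFP) and 55.6% (Ad-Cre) of the summed level, against 25.4% and 32.7% at day 0. The summed level of a step at day 2 was lower in Ad-Cre cells for every step, by log2 ratios of −0.51 for the AGPAT enzymes, −1.46 for the GPAT enzymes, −1.52 for the glycerol 3-phosphate dehydrogenases, −1.85 for the DGAT enzymes and −2.07 for the lipins. For the 3 lipases *Pnpla2*, *Lipe* and *Mgll* together it was −2.13. These shares and sums are of 1 library each and were not tested.

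**Figure D4:**
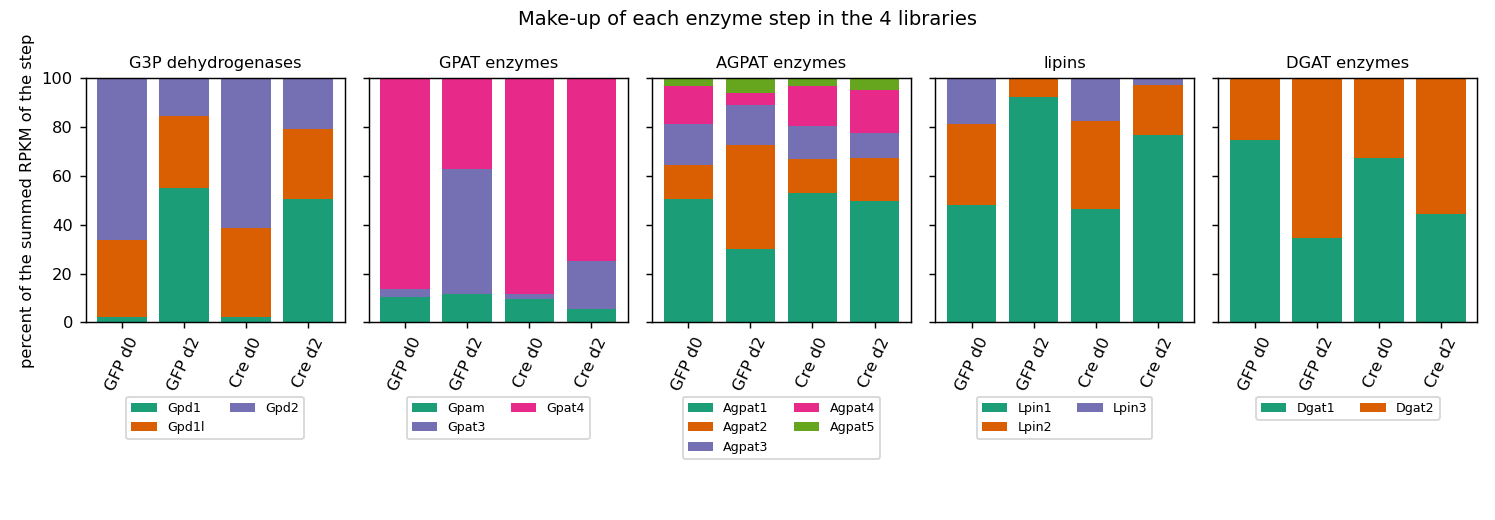
Percent of the summed RPKM of each synthesis step taken by each of its enzymes, as stacked bars for Ad-GFP day 0, Ad-GFP day 2, Ad-Cre day 0 and Ad-Cre day 2. *Gpat3* takes 51.3% of its step in Ad-GFP cells at day 2 and 19.7% in Ad-Cre cells, and *Lpin1* 92.2% and 76.7%.

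The files hold 34 further genes of the pathway from a list, of which 27 were above 1 RPKM in an Ad-GFP library. This list, like the members, was chosen with earlier results of these data known. In Ad-GFP cells 7 of the 27 rose and 3 fell past 2.5-fold, where 8.38% and 12.7% of all expressed genes did. In Ad-Cre cells 6 rose and 4 fell, where 8.66% and 10.0% of genes did. At day 2, 8 were lower and 2 higher in Ad-Cre cells, beside 10.1% and 8.14% of genes, and their median log2 ratio was −0.82, against −2.11 for the members. At day 0, 2 were lower and 1 higher, beside 4.12% and 1.27% of genes. The 1 higher gene is *Aqp7*, on 3 against 1 reads (1.40, −2.24 to 7.12), which is above 1 RPKM in the Ad-GFP day 2 library alone (1.41 RPKM).

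Among acyltransferases, *Gpat3*, an enzyme of the endoplasmic reticulum that acts beside GPAT1, came closest to the members. It had 61, 5364, 52 and 590 reads, with a rise of 6.04 (5.68 to 6.43) in Ad-GFP and 3.62 (3.21 to 4.06) in Ad-Cre cells, and a day 2 ratio of −2.83 (−2.96 to −2.71). *Agpat5* rose in Ad-GFP cells (2.18) and had a day 2 ratio of −0.82, within the cutoff. *Agpat4* went the other way, with 527, 475, 701 and 963 reads, and was higher in Ad-Cre cells at day 2 (1.37, 1.21 to 1.53). *Lclat1*, an acyltransferase of lysophospholipids, was lower in Ad-Cre cells at day 2 (−1.51, −1.71 to −1.31). *Mogat2*, which acylates monoglyceride, had 49, 14, 15 and 0 reads and fell in Ad-GFP cells (−2.23).

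The other phosphatidate phosphatases did not follow *Lpin1*. *Lpin3* fell in both cell populations, with 139, 12, 134 and 26 reads, and at day 2 was higher in Ad-Cre cells (1.47, 0.43 to 2.59). *Plpp1*, a phosphatase of the plasma membrane, had 907, 317, 1129 and 527 reads and fell in Ad-GFP cells (−1.94, −2.12 to −1.75). *Plpp3* had 6181, 7619, 962 and 4124 reads, so that at day 0 it was already lower in Ad-Cre cells (−2.87, −2.97 to −2.77), unlike any member, and rose there to day 2 (2.21, 2.11 to 2.32).

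In glycerol supply, *Gpd1l* rose in Ad-GFP cells (1.53, 1.35 to 1.71) and was lower in Ad-Cre cells at day 2 (−1.57, −1.75 to −1.39). *Gpd2* fell in Ad-Cre cells from day 0 to day 2 (−1.61, −1.80 to −1.42). *Aqp7*, the glycerol channel of fat cells, had 1, 82, 3 and 17 reads, with a day 2 ratio of −1.92 (−2.77 to −1.15). *Pck1*, which feeds glyceroneogenesis, had 0, 42, 0 and 14 reads and stayed under 1 RPKM. Its rise was at least 10.5-fold in Ad-GFP and at least 5.05-fold in Ad-Cre cells, against a floor of 3 reads in the day 0 library.

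Of the 5 other lipases above 1 RPKM, none was over 2.5-fold higher at day 2 in either cell population. *Ddhd2* had log2 ratios of day 2 to day 0 of 0.89 (0.77 to 1.02) in Ad-GFP and 0.92 (0.76 to 1.07) in the Ad-Cre libraries, and *Daglb* of 0.75 (0.49 to 1.02) and 0.85 (0.59 to 1.11). *Lipa* went down in both, with −0.70 (−0.85 to −0.55) and −0.67 (−0.82 to −0.52), and so did *Abhd6*, with −0.65 (−1.04 to −0.25) and −0.52 (−1.03 to −0.02). *Dagla*, a diacylglycerol lipase of endocannabinoid synthesis, fell in Ad-Cre cells (−2.13, −2.51 to −1.76). *Pnpla3*, the nearest relative of *Pnpla2*, stayed under 1 RPKM with 0, 52, 1 and 11 reads. *Ces1d*, *Ces1f* and *Aadac* had 0 reads in every library.

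The inhibitors and gatekeepers of lipolysis moved with the lipases, other than *Hilpda*. *G0s2*, the protein inhibitor of ATGL, had 33, 6561, 30 and 1522 reads and a day 2 ratio of −1.76 (−1.84 to −1.68). *Plin1*, the droplet coat that holds CGI-58 until stimulation, had 18, 2367, 18 and 579 reads and a day 2 ratio of −1.68 (−1.81 to −1.55). For *Cidec*, which promotes droplet fusion, 19, 4116, 28 and 717 reads were counted, a day 2 ratio of −2.17 (−2.29 to −2.06). *Hilpda*, another ATGL inhibitor, had 122, 194, 135 and 233 reads and passed the cutoff in none of the 4 comparisons.

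Quotients within a library do not depend on its depth, and show how the members changed relative to each other. *Lipe* over *Pnpla2* was 1.11 (1.09 to 1.14) in Ad-GFP and 1.12 (1.07 to 1.18) in Ad-Cre cells at day 2. At day 0 the same quotient was 0.885 (0.761 to 1.03) and 0.453 (0.388 to 0.528), with intervals that did not overlap. *Abhd5* over *Pnpla2*, activator over lipase, was 0.456 (0.444 to 0.469) and 0.450 (0.422 to 0.481) at day 2, after 1.26 and 1.19 at day 0. At day 2 each of these quotients thus had overlapping intervals between the cell populations. The quotient of the inhibitor *G0s2* over *Pnpla2* was higher in Ad-Cre cells at day 2, 1.87 (1.76 to 2.00) against 1.43 (1.38 to 1.47), after 0.199 and 0.311 at day 0. *Mgll* over *Pnpla2* was 0.0563 (0.0531 to 0.0597) in Ad-GFP and 0.0790 (0.0699 to 0.0890) in Ad-Cre cells at day 2. *Dgat2* over *Dgat1* passed from 0.340 to 1.91 (1.83 to 1.99) in Ad-GFP cells and from 0.485 to 1.25 (1.15 to 1.36) in Ad-Cre cells. The last 3 quotients had intervals that did not overlap between the cell populations at day 2. The trends over length and GC content were not divided out of the quotients. After these divisions the day 2 ratios of Ad-Cre to Ad-GFP were −2.39 for *Pnpla2*, −2.22 for *Lipe* and −1.62 for *Abhd5*. Those of *Mgll*, *Dgat1* and *Dgat2* were −1.54, −2.03 and −2.20. The likeness of *Abhd5* to *Pnpla2* and the gap between *Dgat1* and *Dgat2* thus depend on the processing. No such value is given for *G0s2*, whose counted transcript has 843 exon bases, near the 837 of *Agpat2*. The day 2 ratio of *Agpat2* moved from −1.78 to −2.22 after the trend over length. Whether the higher quotient of *G0s2* over *Pnpla2* in Ad-Cre cells holds after these divisions was not tested.

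**Figure D5:**
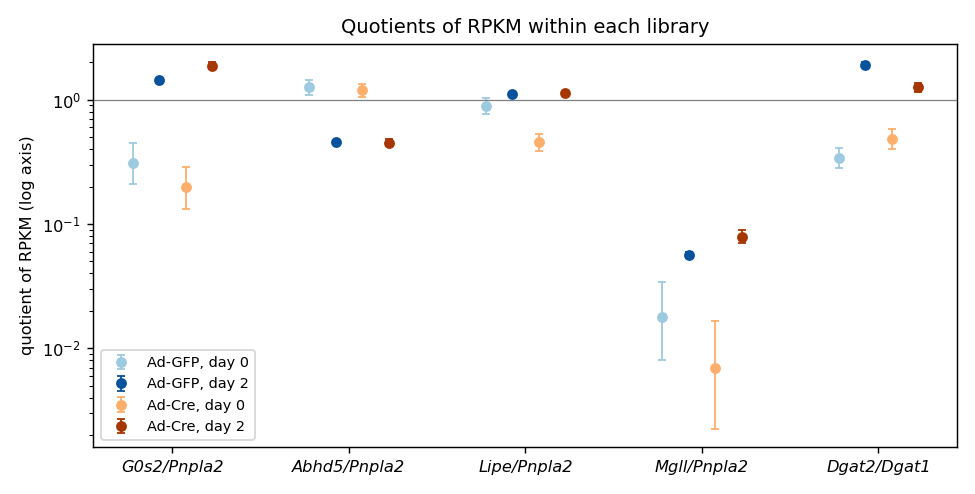
Quotients of RPKM on a log axis, between 2 genes in the same library, with exact binomial 95% intervals; the grey line marks equal levels. At day 2 *Lipe* over *Pnpla2* is 1.11 (Ad-GFP) and 1.12 (Ad-Cre), while *Dgat2* over *Dgat1* is 1.91 and 1.25.

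Genes with a profile most like the members' median were sought among 10691 others with at least 100 reads in a library, by the Euclidean distance of log2(RPKM + 0.1) centred on its mean over the 4 libraries. The nearest were *Slc25a34* (distance 0.113), *Fa2h* (0.163), *Grhl1* (0.216), *Mlxipl* (0.237) and *Pde3b* (0.320). *Slc25a34* is a mitochondrial carrier, *Fa2h* a fatty acid hydroxylase, *Grhl1* a transcription factor, *Mlxipl* the carbohydrate response factor ChREBP, and *Pde3b* a cAMP phosphodiesterase. Of these, *Pde3b* was the only one at levels like the members', 4.39, 79.5, 3.81 and 21.8 RPKM, while the other 4 stayed at or under 2.55 RPKM in every library. The day 0 levels of those 4 were at most 0.0671 RPKM, below the 0.1 RPKM added. Their distances thus depend on that addition. *Pnpla2* was the member nearest to the median profile (0.615), followed by *Abhd5* (0.836), and *Mgll* (2.19) and *Gpam* (2.23) lay farthest from it. With 4 libraries these distances describe likeness only.

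No 50-base window of the members' annotated transcripts, taken every 5 bases, matched elsewhere in NCBI37/mm9 with at most 2 mismatches. None of the members thus has a near-identical copy in that genome under this criterion.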

How the data were processed

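RNA-Seq of 4 libraries, 1 per condition, was analysed, and samples were grouped by GEO's labels. The authors aligned 50-base reads to NCBI37/mm9 with the Illumina Analysis Pipeline and deposited, for 29082 RefSeq transcripts, the whole-number read count on exons without normalization. The authors also deposited the RPKM of each transcript, which divides the count by exon length and mapped reads. The division was recovered exactly with 17198448, 22986362, 19511448 and 18031815 mapped reads for Ad-GFP day 0, Ad-GFP day 2, Ad-Cre day 0 and Ad-Cre day 2, and transcripts of the same gene can share reads. The submitters' processing notes also list bedtools 2.16 and SICER 1.1, with no role. The treatment of reads with several matches is not given in the sources used here.

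Symbols were found for 97.8% of transcripts. Genes above 1 RPKM in an Ad-GFP library were counted as expressed and 2.5-fold was the cutoff, after the study's methods. No test was run, because no condition has a replicate. Intervals were computed with scipy 1.17.1, and all steps ran in Python 3.11.15. The procedure was tested on simulated data. TMM factors came from edgeR 4.0.16 in R 4.3.3. Coordinates came from GENCODE vM1 on mm9, and windows were matched with blastn 2.17.0. The members and gene lists were chosen with earlier results of these data known. Genes named are the members, other pathway genes past 2.5-fold in a comparison with at least 20 reads in 1 library, the 5 nearest profiles and the targeted genes. *Hilpda*, *Ddhd2*, *Daglb*, *Lipa*, *Abhd6*, *Ces1d*, *Ces1f*, *Aadac*, *Gk*, *Lpin2*, *Gpat4*, *Agpat1* and *Pck2*, which fall outside this rule, were named after their values were seen. Alternatives were another denominator, TMM factors, 1 or 0.1 RPKM added, thinning to the smallest library, all transcripts of a gene, division by the trends over length or over length and GC content, other cutoffs, the interval past the cutoff, and no filter on low values. The division by both trends and the addition of 0.1 RPKM were chosen after seeing the data.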

Additional observations from a re-analysis of the deposited data

Results flagged for a closer look

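In 6 genes the log2 ratio of day 2 to day 0 had opposite signs in Ad-GFP and Ad-Cre cells, with each interval wholly on its own side of 0. The intervals cover counting error of 1 library per condition, and the difference between the cell populations was not tested. Among the members this was *Gpam*, with 2.23 (2.04 to 2.42) in Ad-GFP and −0.27 (−0.53 to −0.01) in Ad-Cre cells. *Gpd1l* had 1.53 and −0.41. *Gk*, glycerol kinase, had 0.57 and −0.80. *Agpat4* had −0.57 and 0.57. *Lpin2* had 0.32 and −0.25. *Plpp3* had −0.12 and 2.21, from a day 0 level of 114 RPKM in Ad-GFP and 15.6 RPKM in Ad-Cre cells. Division by the trend over exon length turned the Ad-Cre value of *Gpam* to 0.01 and that of *Lpin2* to 0.23, so the opposite signs of these 2 depend on it. For the other 4 genes the signs were the same under the 8 alternatives of scaling, pseudocount, depth and transcript that were run.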

How the results depend on the processing

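No member's value that passed 2.5-fold changed sign under any alternative run, and of 400 alternative values of single members 81 moved by more than their counting interval. With 1 RPKM added, the median log2 ratio of the members was 3.54 for the rise in Ad-GFP cells and 1.91 for that in Ad-Cre cells. With summed counts as denominator it was −1.98 for Ad-Cre over Ad-GFP at day 2 and 2.26 for the rise in Ad-Cre cells. The day 2 value was −1.96 with TMM factors, −1.82 after division by the trend over length and −1.99 after the trends over length and GC content, and the trend over length gave 4.11 for the rise in Ad-GFP cells. TMM factors moved the median of all expressed genes from 0.15 to 0.05 for the rise in Ad-GFP cells and from −0.16 to −0.01 for Ad-Cre over Ad-GFP at day 2. With them all 10 members were still over 2.5-fold lower at day 2, *Dgat1* only just (−1.322). After division by the trend over length 9 members were, without *Mgll* (−1.22). At a 4-fold cutoff 6 members were lower in Ad-Cre cells at day 2 and 5 had a smaller rise by that much. At 2-fold 1 member, *Mgll*, was lower at day 0. The number that rose in Ad-Cre cells was 5 to 8 over the alternatives. The causes were not tested. GC content was known for 94.3% of expressed genes. Depth limits *Gpd1* and *Mgll* most, whose few day 0 reads give the widest intervals. No paired analysis was possible because each condition has 1 library.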

Other observations

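Several enzymes of the pathway passed the 2.5-fold cutoff in none of the comparisons. *Gpat4*, the main GPAT enzyme at day 0, had 33.0 and 58.5 RPKM at day 0 and day 2 in Ad-GFP cells and 36.2 and 43.1 RPKM in Ad-Cre cells, so that at day 2 it was lower in Ad-Cre cells by less than the cutoff (log2 ratio −0.44, −0.51 to −0.38). *Agpat1* had 51.4 and 68.7 RPKM in Ad-GFP and 60.8 and 80.5 RPKM in Ad-Cre cells, and at day 2 was not lower in Ad-Cre cells (0.23, 0.16 to 0.30). *Pck2*, the mitochondrial relative of *Pck1*, had 70.4 and 136 RPKM in Ad-GFP and 49.3 and 66.5 RPKM in Ad-Cre cells. *Mll3*, listed as *Kmt2c* and disrupted in all of these cells, still had 522 and 1224 reads in Ad-GFP and 463 and 451 reads in Ad-Cre cells at day 0 and day 2.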
